A study of Mus musculus with 2 samples.

Results

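The strongest distal elements of control liver were the 500 distal ATAC-seq regions with the most reads in the *Mettl3* flox/flox library. They were taken from the 45610 distinct regions that lay more than 5 kb from the closest transcription start site in the authors' annotation. They were selected on the control counts alone, and made up 1.10% of these distal regions, and all distinct regions numbered 69549. ATAC-seq had been run on liver of C57BL/6 mice at 8 weeks of age on a normal chow diet. Livers of *Mettl3* flox/flox mice, whose *Mettl3* alleles carry loxP sites but which have no Cre, were the control. Livers of *Mettl3*-HKO mice (*Mettl3* flox/flox *Alb-Cre*+/-) were compared with them, and both groups share the floxed alleles. The albumin promoter drives Cre in hepatocytes, so other liver cells keep the gene. Tissue of 4 mice was pooled into 1 library per group. There was therefore no replicate error and no test between groups, and every ratio given here is a description of these libraries.

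ATAC-seq uses the Tn5 transposase, which inserts sequencing adaptors where DNA is not wrapped tightly, so that reads pile up over promoters and enhancers. Enhancers are stretches of DNA away from gene starts that bind transcription factors and raise transcription of genes on the same chromosome, often over long distances. In hepatocytes they are bound by factors such as HNF4A, FOXA and C/EBP proteins, and many lie near genes of glucose, amino acid and lipid metabolism. METTL3 is the catalytic subunit of the methyltransferase that places N6-methyladenosine on RNA. The gene closest to an element is not always the gene it acts on, and nothing in these files ties a region to a target.

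Some of the strongest distal regions were distal only by the authors' list of starts. RefSeq promoter windows (GRCm38.p6, 250 bases before to 50 bases after a start) were held whole by 81 of the 500 regions, and 69 of those windows belonged to protein-coding genes. Windows of 8 named genes are shown because they let a reader see what kind of sequence sits inside these regions, and the choice was made after their values were seen. Among the protein-coding windows, leaving out genes named only by a LOC or Gm number, *Dock9*, *Sec16b* and *Rnf13* had the most control counts, *Upp2* had the fewest CpG dinucleotides, *Foxp1* had the lowest ratio between the libraries among such windows and *Ctnna3* the highest, *Tef* encodes a clock-regulated transcription factor, and *Ythdc1* encodes a nuclear reader of N6-methyladenosine. Each is written 5′ to 3′ on the gene's strand. Capitals mark the motifs found in it.
Dock9 (chr14:121797685-121797984, minus strand): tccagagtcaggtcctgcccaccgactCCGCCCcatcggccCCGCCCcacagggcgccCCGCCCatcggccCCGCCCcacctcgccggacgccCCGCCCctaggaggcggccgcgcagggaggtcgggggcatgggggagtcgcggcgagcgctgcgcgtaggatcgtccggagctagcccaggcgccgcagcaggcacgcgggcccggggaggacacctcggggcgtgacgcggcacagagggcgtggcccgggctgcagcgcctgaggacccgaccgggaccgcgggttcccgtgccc
Sec16b (chr1:157525920-157526219, plus strand): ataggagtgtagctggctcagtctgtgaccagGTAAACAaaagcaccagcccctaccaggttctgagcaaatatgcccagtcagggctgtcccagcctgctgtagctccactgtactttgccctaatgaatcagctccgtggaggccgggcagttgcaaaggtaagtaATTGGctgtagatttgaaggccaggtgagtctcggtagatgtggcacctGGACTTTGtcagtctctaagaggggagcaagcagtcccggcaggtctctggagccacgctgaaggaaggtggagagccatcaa
Rnf13 (chr3:57735807-57736106, plus strand): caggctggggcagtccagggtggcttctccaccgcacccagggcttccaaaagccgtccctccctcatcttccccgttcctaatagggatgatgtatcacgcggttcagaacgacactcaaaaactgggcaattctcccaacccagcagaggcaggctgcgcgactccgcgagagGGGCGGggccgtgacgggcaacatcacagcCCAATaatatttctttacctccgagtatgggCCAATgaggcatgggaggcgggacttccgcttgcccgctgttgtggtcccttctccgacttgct
Upp2 (chr2:58754934-58755233, plus strand): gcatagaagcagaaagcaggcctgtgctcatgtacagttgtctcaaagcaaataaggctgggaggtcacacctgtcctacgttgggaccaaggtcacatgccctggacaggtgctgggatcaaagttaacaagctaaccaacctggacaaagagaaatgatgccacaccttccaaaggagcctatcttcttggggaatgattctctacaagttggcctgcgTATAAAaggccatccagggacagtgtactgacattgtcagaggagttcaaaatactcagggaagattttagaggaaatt
Foxp1 (chr6:99520944-99521243, minus strand): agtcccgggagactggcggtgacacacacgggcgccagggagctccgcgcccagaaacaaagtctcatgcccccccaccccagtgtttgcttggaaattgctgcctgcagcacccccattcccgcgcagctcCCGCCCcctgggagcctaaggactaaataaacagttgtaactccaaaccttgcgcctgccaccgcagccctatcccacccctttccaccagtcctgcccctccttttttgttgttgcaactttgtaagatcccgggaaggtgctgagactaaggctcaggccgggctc
Ctnna3 (chr10:63429848-63430147, plus strand): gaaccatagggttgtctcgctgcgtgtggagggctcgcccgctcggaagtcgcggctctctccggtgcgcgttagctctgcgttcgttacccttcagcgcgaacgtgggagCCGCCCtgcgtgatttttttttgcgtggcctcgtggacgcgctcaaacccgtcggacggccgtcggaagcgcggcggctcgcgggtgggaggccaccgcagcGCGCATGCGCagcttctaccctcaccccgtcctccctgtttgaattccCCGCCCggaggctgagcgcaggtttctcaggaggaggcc
Tef (chr15:81811164-81811463, plus strand): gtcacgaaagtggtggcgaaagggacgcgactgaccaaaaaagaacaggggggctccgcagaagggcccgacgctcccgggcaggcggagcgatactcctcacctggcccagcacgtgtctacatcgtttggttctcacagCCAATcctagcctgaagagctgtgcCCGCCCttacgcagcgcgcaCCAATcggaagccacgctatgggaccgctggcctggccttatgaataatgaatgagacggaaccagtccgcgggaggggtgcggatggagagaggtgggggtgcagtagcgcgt
Ythdc1 (chr5:86804016-86804315, plus strand): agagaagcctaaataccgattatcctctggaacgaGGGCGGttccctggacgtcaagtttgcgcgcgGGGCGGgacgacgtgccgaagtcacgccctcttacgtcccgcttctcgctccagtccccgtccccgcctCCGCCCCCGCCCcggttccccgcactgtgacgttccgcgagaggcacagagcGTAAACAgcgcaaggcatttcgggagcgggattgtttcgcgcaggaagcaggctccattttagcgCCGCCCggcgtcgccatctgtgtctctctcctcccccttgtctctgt

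The motifs were searched on both strands of the 69 member windows and of all 21263 protein-coding RefSeq windows. They were the CCAAT box bound by NF-Y (CCAAT), the GC box of SP factors (GGGCGG), an ETS site (CCGGAAG), the NRF1 core (GCATGCGC), a forkhead site (TGTTTAC), an HNF4A core (CAAAGTCC), the cAMP response element (TGACGTCA), the D-box (TTACGTAA) and the TATA box (TATAAA). A GC box was present in 54 of 69 member windows (78.3%) and in 46.2% of all windows. The CCAAT box was in 40.6% of member windows against 38.2% of all, the ETS site in 9 of 69 against 11.6% of all, and the NRF1 core in 8.70% against 3.52%. The cAMP response element was in 5.80% against 2.23%, the forkhead site in 4.35% against 3.01%, the HNF4A core in 1.45% against 1.44%, the TATA box in 7.25% against 12.6%, and the D-box in 0% against 0.136%. These are matches of letters, not bound sites. The comparison was with all windows, open or not, and none was made with open promoters alone. In the windows shown, *Dock9* and *Ythdc1* each held 5 GC boxes, and *Sec16b* held none but carried the CCAAT, HNF4A and forkhead letters. The 2 NRF1 matches of *Ctnna3* overlap each other on opposite strands. *Upp2* held only a TATA box. The median member window had 25 CpG dinucleotides and 64.3% GC, against 13 and 56.3% for all windows.

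The 500 regions had 1079 to 14366 counts in the *Mettl3* flox/flox library, with a median of 1359.5, and 319 to 16164 counts after the knockout, where the median was 914. All further values are set against the library totals of 52826202 and 58038305 reads, worked out from the authors' RPM values, which are counts plus 1 scaled to the library total. On that scale the medians were 25.8 RPM in control liver and 15.8 RPM in *Mettl3*-HKO liver. The share of reads in all regions was 31.7% for the control library and 22.3% for the *Mettl3*-HKO library, which moves with the ratios and whose part in them was not tested. A peak had been called in both libraries in 500 of 500 of these regions, and in 55.7% of all distal regions. They covered 2.89% of the distal length and held 12.7% of the distal counts of control liver, which follows from the rule, and 10.6% of those of *Mettl3*-HKO liver.

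The log2 ratio of *Mettl3*-HKO over control, with 1 read added to each count, had a median of -0.76 over the 500 regions, and the middle 50% lay between -1.07 and -0.50. It was below 0 in 486 regions and above 0 in 14. At least 2-fold lower counts were seen in 144 regions (28.8%), where the share was 18.5% of all distal regions and 18.3% of all regions. At least 2-fold higher counts were seen in 1 region, where the share was 16.5% of all distal regions and 13.2% of all regions. The control counts that chose the regions are also the divisor of the ratio, so nothing is read from these shares. Exact Clopper-Pearson 95% intervals, which cover counting error only and treat reads as independent although duplicates were kept, had a median width of 0.24. They lay wholly below 0 for 474 regions, wholly above for 10 and across 0 for 16. Counting error is thus small beside the ratios at this depth, whereas the spread between mice is unknown. Since the tissue was bulk liver, fewer cells of a type and less open chromatin per cell cannot be told apart.

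**Figure D1:**
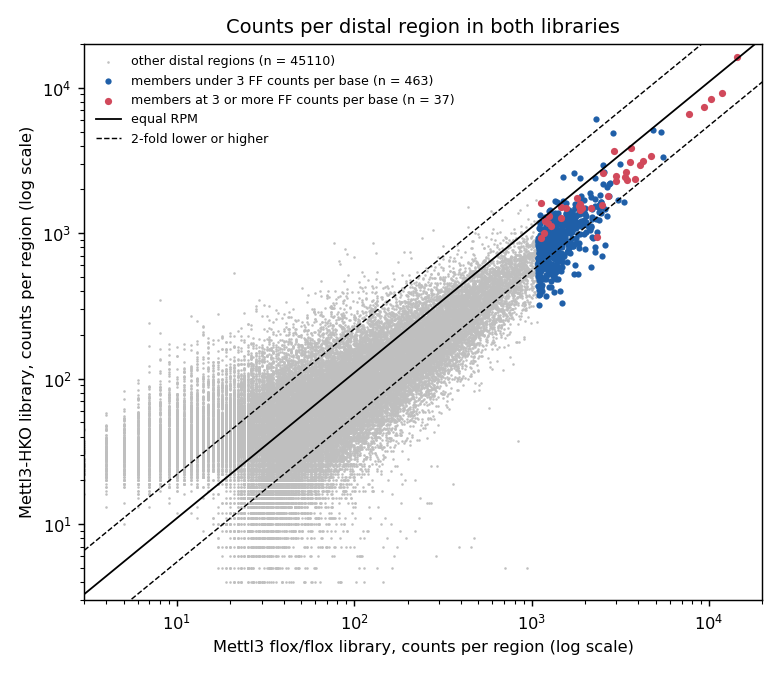
Counts per region in the *Mettl3* flox/flox library (x axis, log scale) and the *Mettl3*-HKO library (y axis, log scale), 1 point per distal region, with lines for equal RPM and a 2-fold difference. The 500 strongest regions (blue and red, called members in the legend) start at 1079 control counts and lie mostly below the line of equal RPM, and the 37 densest (red) lie nearer to it.

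Direction depended on the scale. All regions together had a median log2 ratio of -0.38 on the library-total scale, and relative to it the 500 regions stood at -0.38. Centred on that median, 421 of the 500 were below 0 and 48 at least 2-fold lower. Scaled to the reads inside regions, a shift of 0.51, 371 were below 0, 129 above, 29 at least 2-fold lower and 3 at least 2-fold higher. A region with a ratio between -0.51 and 0 therefore changed sign with the scale.

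The ratio differed with the library used to choose the regions. The 500 distal regions with the most *Mettl3*-HKO counts had a median of -0.47, with 36 at least 2-fold lower and 11 higher, and 350 regions (70%) were in both lists. The 150 strongest control regions outside the *Mettl3*-HKO list had a median of -1.20. The lowest of the 500 in *Mettl3*-HKO liver ranked 3302 there. Promoter regions, centred within 1 kb of the authors' starts and in the same range of control counts, numbered 2154 and had a median of -0.69, with 17.8% at least 2-fold lower and 0 higher. The next 500 distal regions by control counts had a median of -0.82 and 33.6% at least 2-fold lower. The regions ranked 499 and 500, closest to *Ctif* and *Ddit4*, had 1080 and 1079 control counts and 618 and 436 *Mettl3*-HKO counts. Those ranked 501 and 502, near *Polr1a* and *G2e3*, had 1078 and 1077 control counts and 461 and 526 *Mettl3*-HKO counts.

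**Figure D2:**
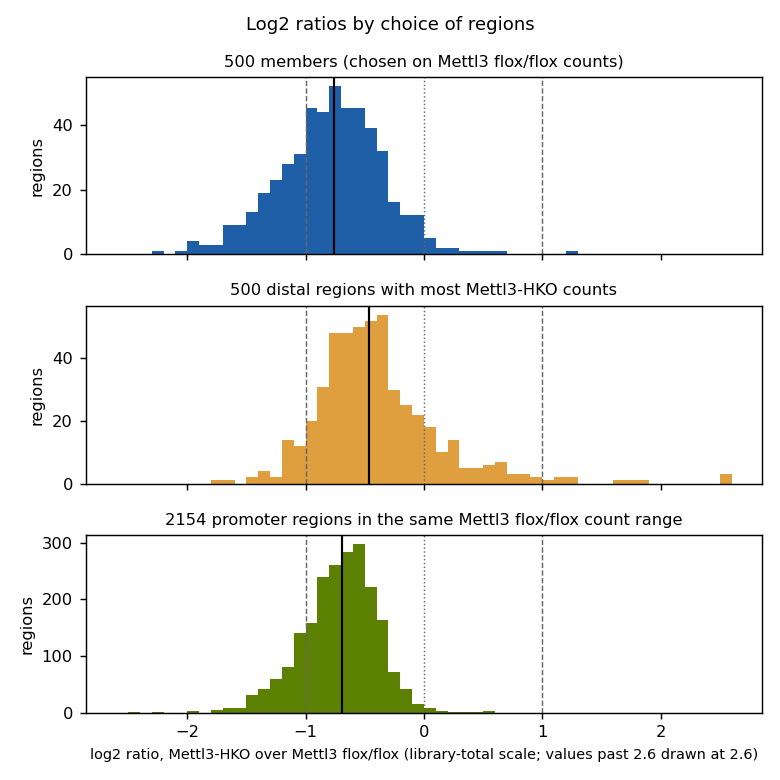
Number of regions (y axis) by log2 ratio, *Mettl3*-HKO over control (x axis, bins of 0.1), for the 500 strongest control regions, the 500 strongest *Mettl3*-HKO regions and 2154 promoter regions. Solid lines mark the medians of -0.76, -0.47 and -0.69, dotted lines mark 0 and dashed lines mark 2-fold.

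The region with the most reads was 437 bp long, at chr6:103648956-103649392 in an intron of *Chl1*, a neural cell adhesion gene, and had 14366 counts in control liver and 16164 in *Mettl3*-HKO liver. The second, at chr5:146260893-146261455 within the RefSeq extent of *Cdk8*, a kinase of the Mediator complex, had 11895 and 9147 counts. The third, at chr16:57391278-57391776 in an intron of *Filip1l*, had 10302 and 8338 counts. These 3 also had the most control counts per base (32.9, 21.1 and 20.6). Duplicates were kept and no repeated sequence was removed here, so whether such dense counts mark open chromatin was not tested. The next in rank, whose nearest protein-coding genes are *Pex2*, of peroxisome biogenesis and 281653 bp away, and *Gtpbp4*, a nucleolar GTPase, had 9383 and 7720 counts in control liver and 7424 and 6642 in *Mettl3*-HKO liver. A 2700 bp region at *Slc25a47*, a mitochondrial carrier of liver, had 5522 and 3360 counts. A 3177 bp region at chr9:124422752-124425928 had 5391 and 4949 counts. One of 2993 bp near *Errfi1*, an inhibitor of EGF receptor signalling, had 4813 and 5130 counts. The last of the 10 strongest, nearest *Hjurp*, a centromere chaperone, and *Ifngr2*, an interferon gamma receptor chain, had 4708 and 4233 counts in control liver and 3370 and 3135 in *Mettl3*-HKO liver. Log2 ratios of these 10 lay between -0.85 and 0.03.

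The regions were long, apart from a small dense class. The median length was 1085.5 bp, with a range of 218 to 3604 bp, against 352 bp for the other distal regions, and the median number of peak summits was 4 against 2. Longer regions collect more counts, so length is tied to the rule. Counts per base use the same control counts and are tied to it as well. Their median in control liver was 1.31 for the 500 regions and 0.175 for the other distal regions. In the dense class, 37 regions had at least 3 control counts per base, and their median length was 385 bp. Only 43 of all distal regions were that dense. Its median log2 ratio was -0.41, with 1 region at least 2-fold lower (715 bp, nearest *Fut10*, 2327 and 939 counts), against -0.80 and 143 of 463 for the others. Centred on the median of all regions the dense class was at -0.03, and scaled to reads in regions at 0.10. The limit of 3 per base was set after the values were seen. Whether the counts of the dense class mark open chromatin was not tested.

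**Figure D3:**
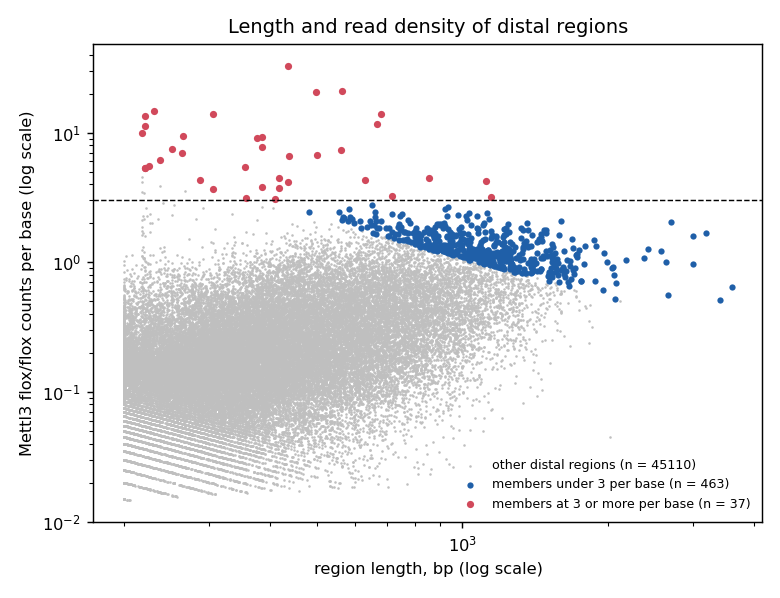
Region length in bp (x axis, log scale) and control counts per base (y axis, log scale), 1 point per distal region. The 37 regions above the dashed line at 3 counts per base are mostly short, with a median of 385 bp, while the other 463 have a median of 1106 bp.

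At the long end, 73 of the 500 regions exceeded 1500 bp, of 123 such distal regions in all. The longest was 3604 bp, at *Serpina3k*, and the region on chromosome 9 given above was 3177 bp. *Serpina3k* encodes a secreted serine protease inhibitor of liver. Its region, at chr12:104345107-104348710, had 2309 counts in control liver and 6060 in *Mettl3*-HKO liver, a log2 ratio of 1.26 (interval 1.19 to 1.33). It was the only one of the 500 at least 2-fold higher on the library-total scale, and *Mettl3*-HKO liver was higher under each scaling used. The 73 long regions had a median ratio of -0.62.

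The other ratios above 0 were all below 2-fold on the library-total scale, and some of them are given here. Of the 500 regions, 2 were at least 2-fold higher when centred on all regions and 3 when scaled to reads in regions. A 2987 bp region at chr16:22898172-22901158 near *Ahsg*, which encodes the plasma protein fetuin-A, had 2877 and 4890 counts (0.63). An intronic region near *Tcte2* had 1496 and 2444 counts (0.57), and a 305 bp region nearest *Pak3* had 1131 and 1606 (0.37).

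Among the lowest ratios, a region in an intron of *Efna5*, an ephrin ligand, had 2150 counts in control liver and 587 in *Mettl3*-HKO liver, a log2 ratio of -2.01 (interval -2.14 to -1.88). A region at *Ppargc1a*, the coactivator PGC-1α of gluconeogenesis and mitochondrial biogenesis, had 1452 and 403 counts (-1.98). Regions nearest *Lekr1* and *Zfp648* had 2488 and 694 counts (-1.98) and 1106 and 319 counts (-1.93). These 4 remained at least 2-fold lower in *Mettl3*-HKO liver when scaled to reads in regions.

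The median distance from the region to the authors' closest start was 20331 bp, close to 21652 bp for all distal regions. Regions at 5 to 10 kb, 10 to 20 kb, 20 to 50 kb, 50 to 100 kb and over 100 kb numbered 116, 129, 164, 63 and 28, with median log2 ratios of -0.69, -0.74, -0.81, -0.80 and -0.93. The regions lay upstream of the start in 245 cases and downstream in 255. By the authors' location of the region's centre, 178 (35.6%) were in introns, 305 (61.0%) between genes and 17 in exons or UTRs. The corresponding shares of all distal regions were 46.3% in introns and 50.1% between genes. The intronic regions had a median ratio of -0.83 and the intergenic ones -0.72. In RefSeq, 281 of the 493 regions on sequences with genes overlapped a protein-coding gene (57.0%, against 52.9% of all distal regions).

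The 500 regions had 469 distinct closest gene identifiers. A symbol was given for 235 of the regions, as 221 symbols, and the other 265 closest identifiers carried none, which is why RefSeq genes are named as well. Only 25 identifiers were closest to more than 1 region. *AC149090.1*, on an unplaced scaffold, was closest to 7, *Pim3*, a serine/threonine kinase gene, to 3, and *Tat* and *Sfi1* to 2 each. The 3 *Pim3* regions had 2133, 1649 and 1327 counts in control liver and 1078, 731 and 582 in *Mettl3*-HKO liver, so each was at least 2-fold lower on the library-total scale, beside 28.8% of all 500 regions. Of the 3, 2 were so when centred on distal regions and 0 when centred on all regions or scaled to reads in regions. The 7 scaffold regions were among 27 distal regions there and summed to 13535 and 13410 counts. Their median ratio was -0.13, and all 7 were above 0 when scaled to reads in regions.

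Set against RefSeq, part of the list was not distal. On the chromosomes with RefSeq starts in the table used here, 98 of 467 regions (21.0%) were centred within 1 kb of a RefSeq start, against 3.46% of all distal regions and 12.1% of the next 500. Among regions of 879 to 1324 bp, the middle 50% of lengths, the share was 25.5% of 235 regions against 10.9% of 1839 other distal regions. *Ythdc1* is an example. Its region at chr5:86803917-86804868 holds the RefSeq window printed above, whereas the start listed by the authors lay 11263 bp away. It had 1575 counts in control liver and 1027 in *Mettl3*-HKO liver (-0.75). The *Dock9* region had 2726 and 1788 counts (-0.74), *Sec16b* 2665 and 1319 (-1.15), *Rnf13* 2454 and 1379 (-0.97) and *Upp2*, encoding uridine phosphorylase, 1884 and 1345 (-0.62). *Foxp1*, a forkhead repressor gene, had 1323 and 504 counts (-1.53) and *Ctnna3*, an alpha-catenin gene, 1120 and 1153 (-0.09). The 98 regions had a median ratio of -0.72, with 28 at least 2-fold lower (10 centred on distal regions, 7 centred on all regions and 3 scaled to reads in regions). The 356 regions more than 5 kb from every RefSeq start had a median of -0.80, with 108 at least 2-fold lower on the library-total scale. On that scale the shares were 28.6% and 30.3%, near the 28.8% of all 500 regions, so nothing is read from them. The ratios of both classes overlapped, at -1.79 to 0.13 and -2.30 to 1.26. Regions whose window held at least 10 CpG dinucleotides (58 of 69, 84.1%, against 56.8% of all windows) had a median ratio of -0.72, and the 11 with fewer had -0.82.

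**Figure D4:**
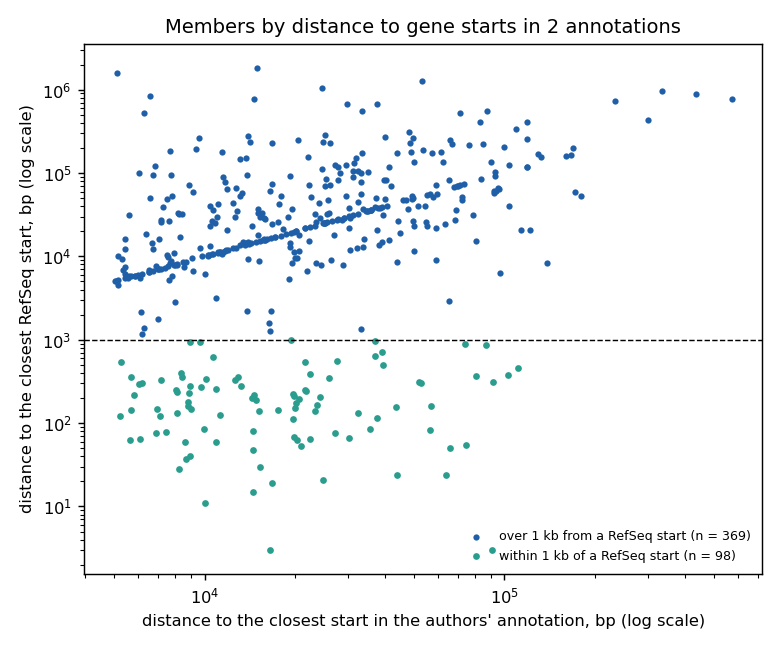
Distance in bp from each of 467 regions to the closest start in the authors' annotation (x axis, log scale) and in RefSeq (y axis, log scale). The 98 green points lie within 1 kb of a RefSeq start although each is more than 5 kb from an authors' start, and points along the diagonal have the same start in both.

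Most regions had no other of the 500 close by. With gaps of at most 10 kb, 40 of the 500 regions (8%) formed 20 pairs and no larger group. Whether that is more or fewer than for other distal regions was not tested. At 25 kb there were 25 clusters of 56 regions, and the largest held 7, and at 50 kb there were 38 clusters of 84 regions. Any other region, distal or not, centred within 10 kb was counted as a neighbour. The regions had a mean of 1.46 neighbours, against 1.28 for the other distal regions, and 30.4% had none, against 34.4%. The log2 ratios within a pair differed by a median of 0.21 and at most 0.58. Both were below 0 in 19 of 20 pairs, where 486 of all 500 regions were below 0, so nothing is read from that count. The smallest gap within a pair was 106 bp.

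The pair of *Tat*, which encodes tyrosine aminotransferase, spanned 2824 bp at chr8:109998292-110001115 with a gap of 106 bp. Its regions had 2261 and 2437 counts in control liver and 1536 and 1533 in *Mettl3*-HKO liver. A pair in *Gbe1*, the glycogen branching enzyme, had 1273 and 1206 counts against 850 and 805, with nearly equal ratios of -0.72 each. The *Zfp648* pair held the widest gap between ratios, with 1106 and 1839 counts against 319 and 793. A pair near *Map3k7cl* was the exception in direction, with 1759 and 1252 counts against 1585 and 1430. The *Sfi1* pair had 1353 and 2433 counts against 1320 and 1838.

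Members were matched to lists of liver genes through the authors' closest start or the nearest RefSeq protein-coding gene. Any hepatocyte list joins the lists below with the hepatocyte markers, and so includes signalling and clock genes. It held 59 of the 500 regions (11.8%, against 6.17% of all distal regions). By the authors' closest start alone it was 32 (6.40% against 2.93%). The medians on these lists span both sides of that of all 500 regions, so the lists are described and nothing is called particular to them.

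Glucose and insulin genes took 17 regions (3.40%, against 0.638% of all distal regions), with a median ratio of -0.90, all below 0 on the library-total scale and 15 below 0 when scaled to reads in regions. At least 2-fold lower were 7 of the 17, beside 28.8% of all 500 regions, and only 2 under each of the other 3 scalings. The region of *Igfbp1*, an insulin-repressed binding protein of IGF, had 3151 and 3011 counts (-0.20). *Pck1*, the cytosolic gluconeogenic carboxykinase, had 2387 and 1235 (-1.09), and *G6pc*, the catalytic subunit of glucose-6-phosphatase, 1354 and 493 (-1.59). *Foxo1*, a transcription factor restrained by insulin, had 2099 and 1099 counts (-1.07). *Ppargc1a* held 3 regions, and its others had 1423 and 678 counts (-1.20) and 1108 and 777 (-0.65). The kinase gene *Pfkfb3* had 1145 and 563 counts (-1.16) and the glucose transporter gene *Slc2a2* 1135 and 605 (-1.04). *Fbp1*, *Ppp1r3b*, *Irs1* and *Onecut1* had ratios of -0.80, -0.60, -0.83 and -0.31. The whole list had a median of -0.73 over its 291 distal regions.

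Amino acid and urea cycle genes took 12 regions (2.40% against 0.509%), with a median ratio of -0.75, all below 0 on the library-total scale and 10 when scaled to reads in regions. *Mat1a*, methionine adenosyltransferase, had 2559 and 2652 counts (-0.08). *Tdo2*, which opens tryptophan breakdown, had 1833 and 982 counts (-1.04), and *Ass1*, argininosuccinate synthase, 1720 and 823 (-1.20). In all, 4 of the 12 were at least 2-fold lower, beside 28.8% of all 500 regions, and this became 1 under either centring and 0 when scaled to reads in regions. The transporter gene *Slc38a2* had 2045 and 1145 counts at one region and 1385 and 988 at another. *Kynu*, *Aass* and *Gls2* had ratios of -0.64, -0.49 and -0.69.

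Fatty acid and triglyceride genes took 7 regions (1.40% against 0.610%), with a median ratio of -0.72. They included *Plin2*, of lipid droplets, with 1644 and 1007 counts (-0.84), and *Ppara*, the nuclear receptor of fatty acid oxidation, with 1474 and 1082 counts (-0.58) and 1135 and 759 (-0.72). *Lpin1* had 1365 and 919 counts (-0.71), *Acaca* 1297 and 840 (-0.76) and *Elovl5* 1195 and 991 (-0.41). The single region of the cholesterol and bile acid list lay at *Insig1*, with 1293 and 817 counts (-0.80). The lipoprotein list had *Trib1*, with 1358 and 850 counts (-0.81), and *Apoa5*, with 1231 and 866 (-0.64).

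Plasma protein genes took 5 regions (1% against 0.482%). Besides *Serpina3k* and *Ahsg*, the region closest to *Afp* and to *Alb*, the albumin gene, had 2517 and 2187 counts (-0.34), *Gc*, the vitamin D binding protein, had 1246 and 1049 (-0.38) and *Lifr*, also on the growth factor list, 1208 and 700 (-0.92). The list's median was -0.34, and it turned to 0.04 when centred on the median of all regions. Liver transcription factor genes took 11 regions (2.20% against 1.49%) with a median of -0.72. Apart from *Ppara* and *Onecut1* they included *Foxa1*, a pioneer factor gene (1285 and 728 counts, -0.95), *Thrb*, a thyroid hormone receptor gene (1253 and 623, -1.14), and *Nr1i2*, the xenobiotic receptor PXR (1269 and 1185, -0.23). *Tox*, better known from T cells, held 2, with 1845 and 1529 counts (-0.41) and 1193 and 576 (-1.18). *Sall1*, *Nfib* and *Nfia* had ratios of -0.68, -0.86 and -0.81.

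Growth factor and cytokine genes took 7 regions (1.40% against 0.868%) with a median of -0.84, *Errfi1*, *Igfbp1* and *Lifr* among them. *Id2* had 1457 and 892 counts (-0.84), the interleukin 1 receptor gene *Il1r1* 1412 and 808 (-0.94) and *Gadd45a* 1329 and 1014 (-0.53). *Nfkbia*, the NF-κB inhibitor IκBα, had 1094 and 506 counts and was the only region of that list at least 2-fold lower (-1.25), and 0 were when centred on all regions or scaled to reads in regions. Among metal handling genes, *Slc39a8* had 1896 and 1114 counts (-0.90), *Slc39a14* 1301 and 865 (-0.72) and *Alas1*, which starts heme synthesis, 1182 and 1286 (-0.01). The clock list held only *Tef*, with 2149 and 1778 counts (-0.41). No region of the 500 lay by a cytochrome P450 gene of families 1 to 4 or by a conjugation enzyme gene. Those lists had 171 and 109 distal regions, of which few would be members at the overall share of 1.10%, so the 0 is not a result about them.

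**Figure D5:**
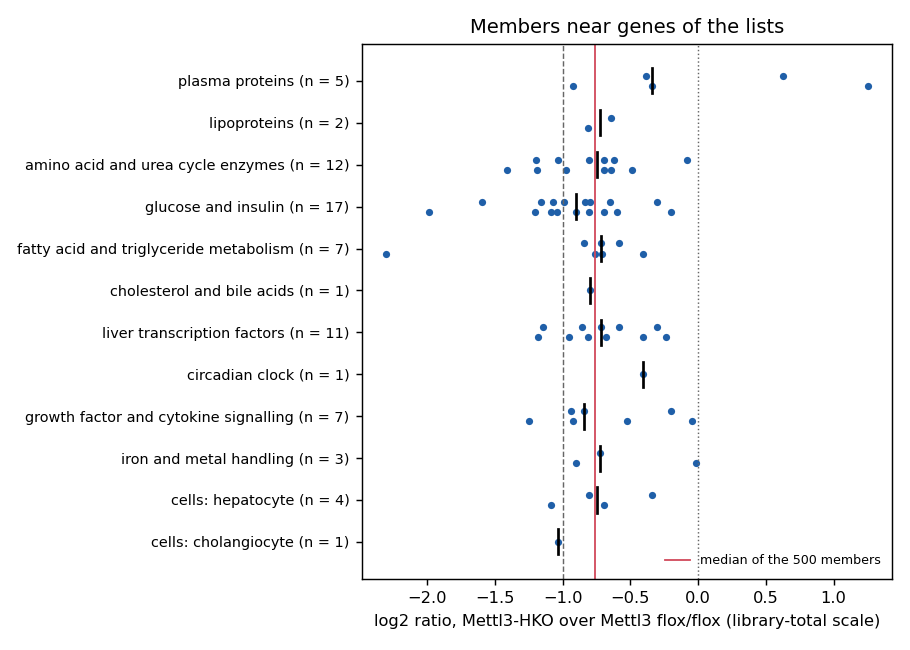
Log2 ratio, *Mettl3*-HKO over control (x axis), for each of the 500 regions near a gene of a list (points), with black bars at the list medians and a red line at the median of all 500 regions, -0.76. *Serpina3k* (1.26) and *Ahsg* (0.63) are the 2 points above 0.

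Marker genes could check the tissue label only weakly. Of 8 markers per type, hepatocyte genes accounted for 4 regions at *Alb*, *Tat* and *Pck1*. Endothelial, macrophage, stellate and lymphocyte markers accounted for 0 of the 500 regions and for 60, 6, 19 and 10 distal regions in all, and at the overall share of 1.10% a count of 0 says little. The levels of these marker regions did not move alike. Over all distal regions the median log2 ratio was -0.60 for the 64 of hepatocyte markers and 0.35 for the 60 of endothelial markers. It was -0.44 for the 45 of cholangiocyte markers, 0.03 for macrophage, -0.0019 for stellate and -0.10 for lymphocyte markers, against -0.24 for all distal regions. These marker sets were not matched for counts. Over distal regions split into 10 classes by count, the median ratio ran from 1.10 in the weakest class to -0.65 in the strongest. The parts of count level in the marker medians, and of cell type shares in the ratios of the 500 regions, were not tested. The cholangiocyte list had 1 region of the 500, in *Pkhd1*, with 1385 and 744 counts (-1.03). At *Mettl3* itself the region over the start had 566 and 392 counts (log2 ratio -0.66). This does not check the deletion, since the paper describes loxP sites around internal exons of the gene, not around its start.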

How the data were processed

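ATAC-seq of 1 pooled liver library per group was used. The authors trimmed adaptors with skewer, aligned reads with BWA to GRCm38, kept properly paired non-mitochondrial reads, called peaks with MACS2 with duplicates kept, and deposited for each merged region raw counts and RPM, which equals the count plus 1 scaled to the library total. How reads were counted and any shift of read ends for Tn5 are not given in the sources used here. The columns with the authors' fold enrichment and log2 ratio were not used. Of 74821 rows, 5272 repeats of a region were dropped. Ratios, lengths and distances were computed with Python 3.11.15, pandas 2.3.3, numpy 2.4.6, scipy 1.17.1 and matplotlib 3.10.9, and tested on simulated counts. RefSeq starts and genes came from a table of GRCm38.p6. It held no start on the chromosomes or scaffolds of 33 regions. The members, lists and thresholds were chosen with earlier results of these data known. Genes named were the strongest, highest, lowest, longest and densest regions, those in clusters or closest to several regions, up to 4 of each list, and others chosen after their values were seen. Alternatives covered scaling, added reads, choice and number of regions, distance and cluster gap. Some regions that this rule names are not reported here.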

Additional observations from a re-analysis of the deposited data

How the results depend on the processing

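Of 67 alternative values, 41 stayed close and 26 moved, where close means within 1.5 times for a share and within the 95% binomial interval of the median over regions for a ratio or length. The median ratio stayed below 0 under each alternative run. Most runs kept the choice on control counts, which are the divisor of the ratio. The choice by *Mettl3*-HKO counts was run on library totals only and not with the other scalings, so nothing is read from the shared sign. The share of regions at least 2-fold lower was 28.8%, and it was 9.6% when centred on all regions, 15.4% when centred on distal regions and 5.8% when scaled to reads in regions, 7.2% for the 500 regions chosen by *Mettl3*-HKO counts and 67% at 1.5-fold. The median ratio was -0.38, -0.52 and -0.25 under the same 3 scalings, -0.47 when chosen by *Mettl3*-HKO counts and -0.65 by summed RPM. The share at least 2-fold higher was 0.2%, and it was 0.4% centred on all regions, 0.6% scaled to reads in regions, 2.2% by *Mettl3*-HKO counts, 0.8% by summed RPM, 0% by counts per base, 0% beyond 10 kb, 0.1% for 1000 regions, 0.4% for 250 and 0.4% at 1.5-fold. The median length was 692.5 bp by counts per base, 1020 bp for 1000 regions and 1175.5 bp for 250. Regions in clusters were 22% by counts per base, and 4.8% and 16.8% with gaps of 5 kb and 50 kb. Regions whose closest gene was on a hepatocyte list were 6.4%, and 11.8% with the nearest RefSeq gene added. The cause of these shifts was not tested. No paired analysis was possible because each group had 1 library. With 1 library per group, no value has a replicate error, and depth limits only the counting error.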

Other observations

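The 150 distal regions that entered the strongest 500 of *Mettl3*-HKO liver without being among those of control liver had a median log2 ratio of -0.06, and 10 were at least 2-fold higher. They were chosen on the *Mettl3*-HKO counts, so these values are a description. The highest was a region of chromosome 3 whose nearest protein-coding gene was *Snx16*, with 77 counts in control liver and 851 in *Mettl3*-HKO liver (3.31). A region nearest *Mmp15*, a membrane matrix metalloproteinase gene, had 128 and 853 counts (2.59). Regions near *Hpx*, which encodes the heme-binding plasma protein hemopexin, and *Selenop*, which encodes the plasma selenium carrier, had 240 and 922 counts (1.80) and 439 and 1521 counts (1.65). The region near the immediate early gene *Egr1* had 586 and 1420 counts (1.14). *Fgb*, the fibrinogen beta chain, had 681 and 1238 counts (0.73). Of the 150, 23 were near a gene of any hepatocyte list, beside 11.8% of the 500 strongest control regions and 6.17% of all distal regions. A gene of the liver transcription factor list was near 7 of them, beside 2.20% and 1.49%. These genes were *Egr1*, *Fos*, *Jun*, *Klf6*, *Zbtb20* and *Sall1*, and not all of them are particular to hepatocytes. When all distal regions were split into 10 classes of similar size by mean log2 count of both libraries, the median ratio went from 1.10 in the weakest class to -0.65 in the strongest.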
